A study of Mus musculus with 48 samples.

Results

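The hypothalamus samples of a survey of mouse tissues by microarray were set against the liver, kidney, testis and ovary samples of the same survey. An array was taken as hypothalamus where its title names that tissue, which gave 12 of 48 arrays and 6 of 24 RNA samples, 3 from males and 3 from females. Liver and kidney also had 6 RNA samples each, 3 per sex, and testis and ovary had 3 each. Each RNA sample was hybridised to 2 arrays, which were averaged, so the unit of replication is the RNA sample.

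Every RNA was bought ready made, as a pool from 10 animals. Nothing in the labels tells whether the RNA samples of 1 tissue and sex are different pools, so p-values here measure the spread between these samples, which may be technical. No treatment or genetic change is named for any group, and the sources used here give neither strain nor age. The sample descriptions state that hypothalamus RNA was total RNA whereas the other tissues were supplied as RNA selected 3 times for poly(A) tails, although the molecule field reads total RNA for every sample. As written in the descriptions, the kind of RNA and the tissue coincide in every comparison below and cannot be told apart.

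The hypothalamus lies at the base of the forebrain and sets feeding, water balance, body temperature, reproduction, growth, stress responses and sleep. Its neurons make peptides that are cut from larger precursors inside dense core granules and are released in the brain, into the portal blood of the pituitary, or from axon endings in the posterior pituitary. It also holds the neurons with fast transmitters, oligodendrocytes, astrocytes, microglia and vessel cells found elsewhere in brain, and tanycytes that line the third ventricle. In bulk RNA, fewer cells of a type and less RNA per cell cannot be told apart.

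Values are the deposited probe set intensities, which the authors had scaled so that the trimmed mean of each array is close to 500 (500.11 to 500.23). The median intensity of an array ran from 233.2 to 276.0 in hypothalamus and from 163.3 to 256.1 in the other tissues. The 2 arrays of a hypothalamus RNA sample correlated at r = 0.973 to 0.9819 over probe sets, and no pair of arrays held identical values. Differences between tissues are means of log2(intensity + 48.3), written with their standard error. Such a difference understates the fold of dim genes, and levels of different genes were not compared.

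The labelled tissue was borne out by its markers. Snap25, which encodes a synaptic membrane fusion protein, read 7405 at the lowest, 7829 at the median and 8308 at the highest of the 6 hypothalamus samples. It did not exceed 18.3 in any of the other 18 samples. Hcrt, the precursor of the wake-promoting orexins made by neurons of the lateral hypothalamus, read 537, 675 and 768 in the same order, against 29.5 to 180.4 elsewhere. Cartpt, the precursor of the appetite-suppressing peptide CART, read 979.8, 1282 and 1461, against 21.6 to 121. For all 3 markers the hypothalamus values lay clear of every other sample. The differences from the mean of the 4 other tissues were 7.09 ± 0.07 for Snap25, 2.13 ± 0.14 for Hcrt and 3.65 ± 0.15 for Cartpt on the log2 scale (limma, Benjamini-Hochberg adjusted p = 1.07e-26, 1.61e-12 and 6.62e-16). Snap25 passed the filter on low values through hypothalamus samples alone and so had to differ. Its p-value therefore adds nothing to the ranges. Cartpt did not exceed 121 elsewhere and may have entered in the same way, so its p-value is not used as support either.

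Some hypothalamus samples stood apart for small groups of genes, which were picked out after their values were seen. Most of the skeletal muscle genes looked at were high in females 1 and 2. The fibre actin Acta1 read 1148 and 458 there and 115 to 184 in the other 4 samples. Female 3 was high for some cerebellar genes, such as Pcp2, a Purkinje cell protein, at 600.5 against 89 to 154 in the other 5. Not all cerebellar genes were highest there: the 10 looked at summed to 11034 in female 3 and 10782 in male 1. Immunoglobulin genes were high in male 1 and female 2. Acta1 is among the genes above each tissue, and it exceeded the 4 tissues by 1.83 with all samples and by 1.48 without female 1.

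**Figure D1:**
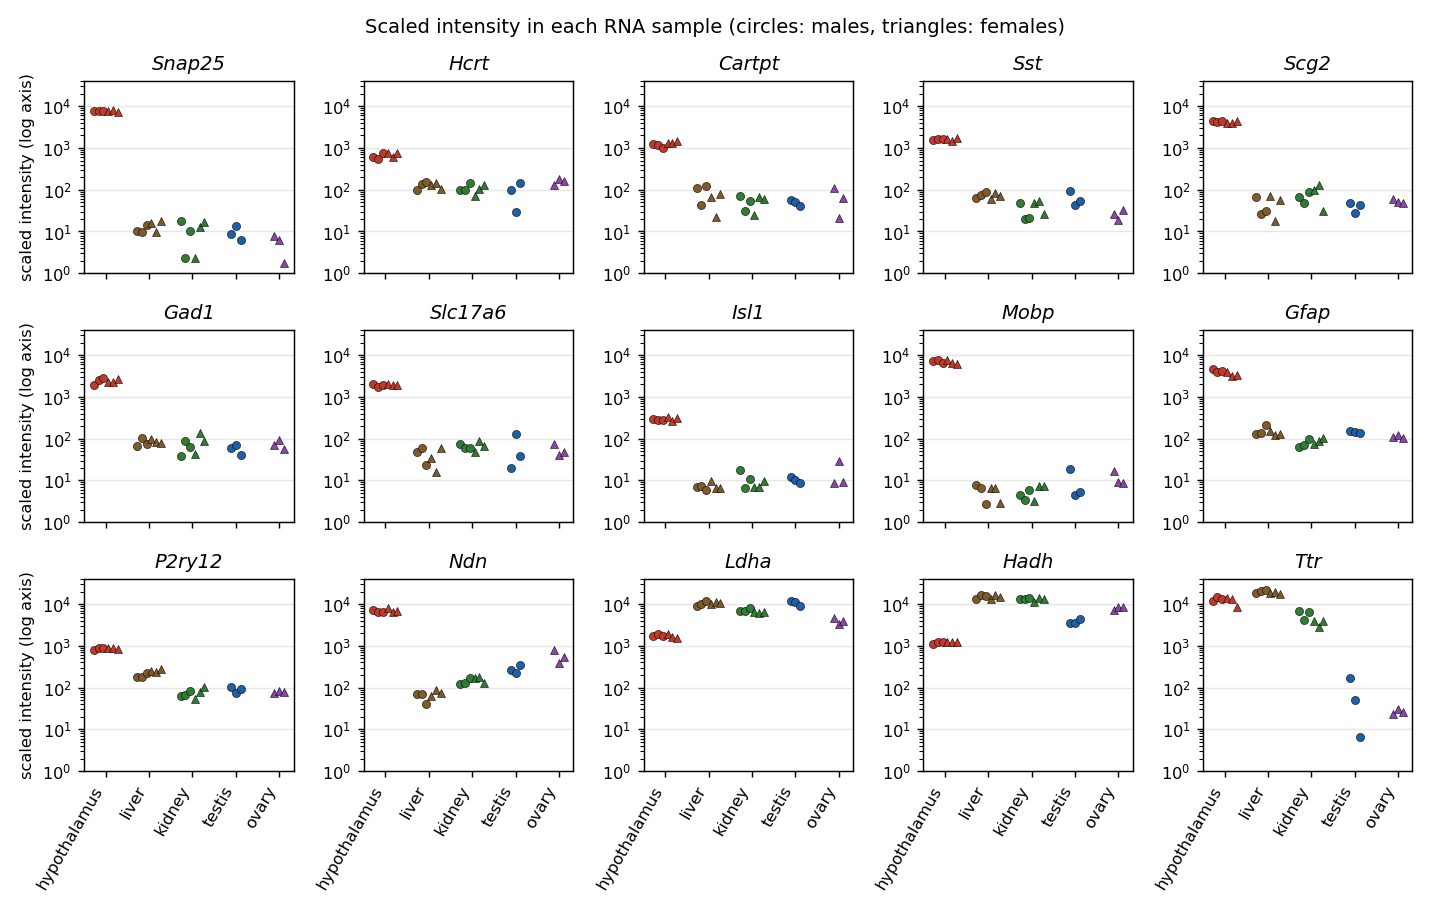
Scaled intensity (log axis) of 15 genes in each of the 24 RNA samples by tissue, circles for males and triangles for females. The hypothalamus points of Snap25, Hcrt, Cartpt, Sst, Scg2, Gad1, Slc17a6, Isl1, Mobp, Gfap, P2ry12 and Ndn lie above all others, those of Ldha and Hadh lie below all others, and those of Ttr lie between liver and kidney.

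Of 18092 probe sets tested, 7515 (41.5%) were higher and 6552 (36.2%) lower in hypothalamus than in the mean of the 4 tissues, each tissue weighted equally (limma, adjusted p under 0.05). Against single tissues the higher and lower shares were 47.8% and 28.3% for liver, 43.5% and 29% for kidney, 46.7% and 27.8% for testis, and 29.9% and 32% for ovary. Ovary was the tissue with the fewest higher calls. With most probe sets called, a call alone says little, so a stricter rule was used to single out genes: adjusted p under 0.05 and at least a 2-fold difference, in the same direction, from each of the 4 tissues. By that rule 1679 probe sets (9.28%) were above each tissue and 222 (1.23%) below each. All 6 hypothalamus values lay above all 18 others for 3214 probe sets (17.8%) and below all of them for 925 (5.11%).

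The balance of higher and lower calls depended on how arrays were scaled. The share of calls that were higher was 53.4% as deposited, 43.2% after quantile normalization and 37.9% after centring each array on its median. It went from 62.8% to 50.1% and 43.4% against liver, from 60% to 48.5% and 41.5% against kidney, and from 62.7% to 51.2% and 45% against testis, and moved less against ovary, from 48.3% to 46.1% and 45.2%. Among probe sets beyond each tissue the share above went from 88.3% to 82.1% and 75.8%. The median difference over genes moved from -0.02 to -0.22 and -0.31 under the same 2 scalings, so small differences are read against that shift.

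Taking the brightest tested probe set for each of 10742 genes, 4062 genes (37.8%) were higher and 4297 (40%) lower in hypothalamus than in the 4 tissues. Those above each tissue numbered 889 (8.28%), and those below each numbered 137 (1.28%). The median log2 difference from the nearest tissue was 1.77 for the genes above, of which 349 differed at least 4-fold, 155 at least 8-fold and 61 at least 16-fold from every tissue. For the genes below, it was -1.34, and 25 differed at least 4-fold. The tissue nearest to hypothalamus was ovary for 448 of the 889 genes above (50.4%), testis for 203, kidney for 126 and liver for 112. Among the 137 below it was testis for 54 (39.4%), ovary for 37, and liver and kidney for 23 each. Among all genes called higher the nearest tissue was ovary for 49.7% and testis for 21.5%, near the shares of the genes above. Among all called lower it was testis for 37.1%, liver for 25.8%, kidney for 20% and ovary for 17.1%. Of the genes below, ovary's share (27%) was larger than that and liver's (16.8%) smaller, while testis and kidney were nearer. The nearest tissue was taken on the deposited scale only. On that scale the array medians of ovary (229.5 to 256.1) were closer to those of hypothalamus than were those of liver (167.2 to 194.1), kidney (178.0 to 205.2) and testis (163.3 to 190.8). How far the ranking of tissues depends on the scaling was not tested.

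The genes farthest above the nearest tissue belonged to neurons and to myelin. Mobp, a structural protein of central myelin, read 6155, 6734 and 7596 in hypothalamus and at most 18.5 elsewhere, a difference of 6.94 ± 0.07 (limma adjusted p = 1.07e-26). Nefl, the light chain of neurofilament, read 6178, 6610.0 and 7047 against 7.85 to 79.7 and differed by 6.37 ± 0.11 (adjusted p = 1.39e-22). Neither gene had a sample of another tissue near the hypothalamus range. Both entered the test through hypothalamus samples alone and were picked for their gap in these same data. Their p-values are therefore no support beyond the ranges. Mbp, the main basic protein of myelin, ranged from 12695 to 14494 in hypothalamus and from 88.5 to 236 elsewhere. The microtubule regulators Stmn3 and Stmn4, the neuronal membrane protein Nrsn1, the vesicle-traffic GTPase Rab6b and the bicarbonate transporter Slc4a10 followed, with differences of 5.87, 5.50, 5.43, 5.63 and 5.24 from the 4 tissues.

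The genes farthest below all tissues were mostly enzymes of metabolism and detoxication. Gstm2, a glutathione transferase, read 127, 150.2 and 168 in hypothalamus and from 1009.5 to 6628 elsewhere. Fdx1, the electron donor of mitochondrial steroid hydroxylases, read 547, 637 and 731 against 4098 to 13943. In both cases the highest hypothalamus sample lay under the lowest of the others. Bhmt, which remethylates homocysteine, Fabp4, a fatty acid carrier of fat cells, the aldehyde dehydrogenase relative Aldh16a1, the carboxylesterase Ces1d, the oxidase Hao2, the alcohol dehydrogenase Adh1, the carbonic anhydrase Car3 and the ribosomal protein relative Rps27l completed the 10, each at a log2 difference of -2.36 or further below the nearest tissue.

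Counts over gene lists are given below beside the shares over all genes, which are 37.8% higher, 40% lower, 8.28% above each tissue and 1.28% below each, with a median difference of -0.02. A gene detected in hypothalamus alone enters the test only because it is high there and had to differ. The counts therefore describe the lists and support nothing further, and the p-value of such a gene adds nothing to its ranges. Over all genes, 397 of 10742 entered in that way. So did 4 of 15 transmitter genes, 3 of 20 hormone and feeding receptors, 2 of 28 imprinted genes and 2 of 23 brain isozymes and pumps. The lists for microglia, brain endothelium, hindbrain and long noncoding RNA each held 1 such gene.

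**Figure D2:**
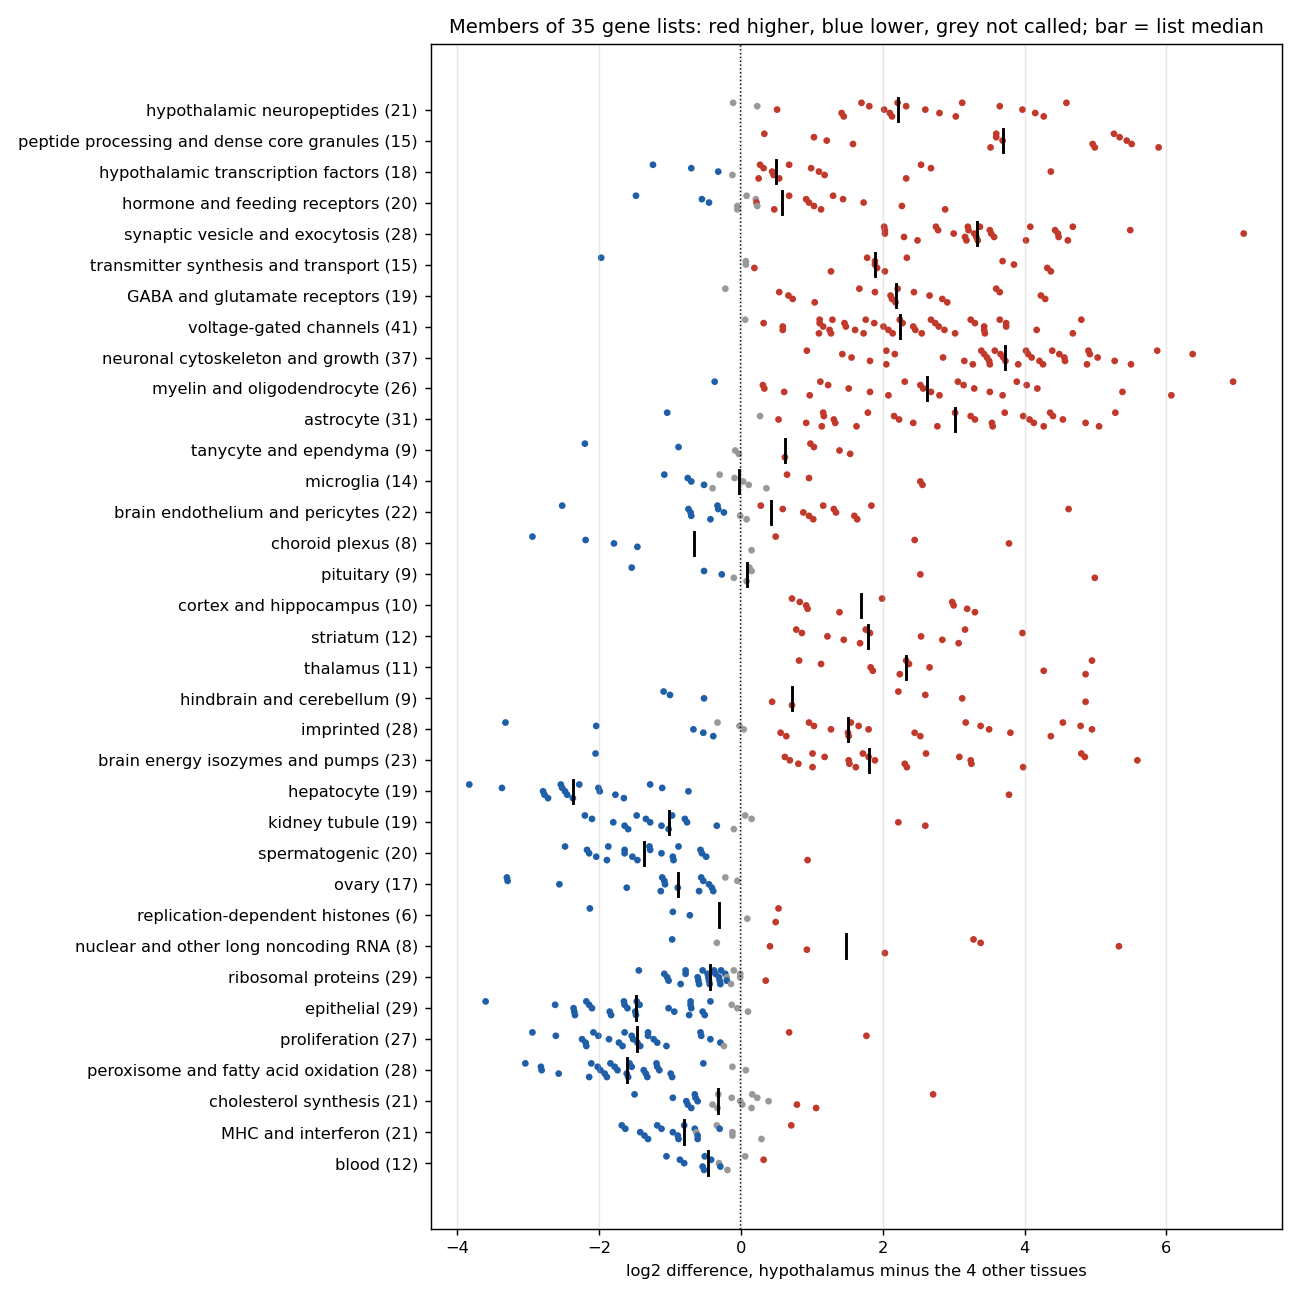
Log2 difference, hypothalamus minus the mean of the 4 other tissues, for the tested members of 35 gene lists (number tested in brackets), 1 point per gene. Red points were higher and blue lower at adjusted p under 0.05, grey points were not called, bars are list medians and the dotted line is the median of all genes at -0.02; neuronal and glial lists lie mostly to the right and hepatocyte, epithelial, proliferation and fatty acid oxidation lists to the left.

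Neuropeptide genes came first in the ordering by role. Of 32 listed, 24 had a named probe set and 21 entered the test, 11 of them through hypothalamus samples alone. Among the 21, 19 were higher, 2 were not called and 16 were above each tissue, with a median difference of 2.21. Ghrh, Pdyn and Nmu did not pass the filter on low values; the highest hypothalamus value among them was 189, for Pdyn.

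The peptides of the magnocellular neurons, which send axons to the posterior pituitary, differed in their background in other tissues. Avp, the precursor of the antidiuretic hormone vasopressin, read 2682, 3995 and 5264 in hypothalamus and 73.5 to 171 elsewhere, a difference of 4.59 ± 0.12 (limma adjusted p = 1.94e-19). Oxt, the precursor of oxytocin, read 2702, 3359.5 and 3683 against 577 to 1250, a difference of 2.02 ± 0.11 (adjusted p = 1.42e-13). The hypothalamus samples were clear of the rest for both. Avp spread over a wider range among the 6 samples than Oxt did.

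Peptides that act on the anterior pituitary were also high. Sst, the precursor of somatostatin, which inhibits growth hormone release, read 1450.2, 1637 and 1735 against 18.8 to 92.4 and differed by 4.15 ± 0.09 (limma adjusted p = 4.68e-21). Trh, the precursor of thyrotropin-releasing hormone, read 83, 165 and 216 against 4.6 to 9.35. Both groups were apart, and the small size of the Trh difference, 1.81 ± 0.11, is on a scale to which 48.3 had been added. Vip, a peptide of the body clock nucleus among others, read 191 to 309 against 40 to 96.9.

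Peptides of feeding, arousal and reproduction circuits gave both clear and overlapping values. Cck, a satiety peptide of gut and brain, read 1501, 1716 and 1858, with kidney at 208 to 349 the only other tissue above 20.8. Tac1, the precursor of substance P, read 1322 to 2137 against at most 177, and Tac2, the precursor of neurokinin B that acts in the control of gonadotropin release, read 634 to 817 against at most 65.2. Gal, the precursor of galanin, read 542 to 706 against at most 122. The ranges overlapped for Npy, a feeding-promoting peptide, which read 784, 1065 and 1120.5 in hypothalamus and 317 to 785 in kidney. Its difference from the 4 tissues was 2.10 ± 0.17 (limma adjusted p = 1.47e-10).

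A pair of peptide precursors was as high in a gonad as in hypothalamus. Penk, the precursor of enkephalins, read 937, 1572 and 2303 in hypothalamus, 1578 to 2791 in testis and 833 to 1157 in ovary. Pomc, the precursor of melanocortins and of ACTH, read 292, 335 and 365 in hypothalamus and 605 to 700.1 in testis. Penk passed the test against the 4 tissues (1.45 ± 0.16, limma adjusted p = 1.64e-08), although its testis samples reached above the hypothalamus range. The Pomc difference was 0.23 ± 0.11 (adjusted p = 0.0775), and Nmb, a bombesin-like peptide, stood at -0.11 ± 0.09 (adjusted p = 0.269). Nmb was called lower after quantile normalization (-0.41) and after median centring (-0.40), with adjusted p = 0.000185 in both limma fits.

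The machinery that packs and cuts these precursors was high throughout. Of 17 genes listed for dense core granules and peptide processing, 15 entered the test, 6 through hypothalamus alone, all 15 were higher and 10 were above each tissue, with a median difference of 3.69. Resp18, a granule protein of endocrine cells and neurons, read 2868, 3167 and 3505 against at most 13.9, a difference of 5.89 ± 0.07 (limma adjusted p = 3.08e-26). Scg2, secretogranin II, read 3983, 4207 and 4511 against 17.4 to 130.1, and Chgb, chromogranin B, read 2985, 3319 and 3699 against 4.4 to 216. No sample of another tissue came near these ranges. The differences were 5.44 ± 0.14 for Scg2 and 4.99 ± 0.17 for Chgb (adjusted p = 1.05e-19 and 1.09e-17).

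Convertases and their partners were less uniform than the granule proteins. Pcsk1n, an inhibitor of the convertase PC1/3, read 5479 to 6513 with testis next at 194 to 502. Pcsk1, the gene of that convertase, read 238, 273 and 296 in hypothalamus and 197 to 322 in testis. Its hypothalamus and testis ranges overlapped, and its difference from the 4 tissues was 1.21 ± 0.10 (limma adjusted p = 1.61e-10). Cpe, the carboxypeptidase that trims the cut peptides, read 7605 to 10082 in hypothalamus and 3943 to 5689.6 in ovary, so that it was apart from all other samples yet under 2-fold above ovary. Cpd, a carboxypeptidase of the same family, differed by 0.33 ± 0.09 and overlapped kidney; after median centring it stood at 0.03 and was not called.

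Peptide and granule genes are a textbook case of promoters with the cAMP response element, the palindrome TGACGTCA bound by CREB. RefSeq promoter windows of GRCm38.p6, from 250 bases before to 50 after each gene's start, were searched for those 8 letters, which read alike on both strands. The element was found in 549 of 27025 promoters (2.03%) and in 277 of the 8653 tested genes with a window (3.2%). It was found in 2 of 17 neuropeptide genes with a window, 3 of 13 granule genes and 2 of 24 synaptic vesicle genes. These are matches of letters and not shown sites. The windows of the 5 peptide and granule genes with a match are shown, since they are among the members just described, with the element in capitals and 16 bases on either side, 5′ to 3′ on the strand of the gene.
Scg2 (chr1:79440071-79440110, minus strand): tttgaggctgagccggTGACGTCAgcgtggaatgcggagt
Chgb (chr2:132781554-132781593, plus strand): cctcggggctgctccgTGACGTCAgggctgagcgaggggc
Pcsk1 (chr13:75089763-75089802, plus strand): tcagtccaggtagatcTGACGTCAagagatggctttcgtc
Cartpt (chr13:99900772-99900811, minus strand): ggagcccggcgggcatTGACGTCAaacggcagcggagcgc
Sst (chr16:23890869-23890908, minus strand): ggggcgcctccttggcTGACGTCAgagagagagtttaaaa
The first base of the element lay 68 bases before the start of Scg2, 72 before Chgb, 78 before Pcsk1, 112 before Cartpt and 48 before Sst. Of these 5 genes, Scg2, Chgb, Cartpt and Sst were above each tissue, and Pcsk1 was not.

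Of the transcription factors that pattern hypothalamic nuclei, 29 had a probe set and 11 of these did not pass the filter, among them Otp, Nkx2-1, Rax and Six6. Of the 18 tested, 14 were higher, 3 lower and 4 above each tissue, with a median of 0.50; under either quantile normalization or median centring 7 were higher and 4 lower. Isl1, which specifies arcuate neurons, read 269, 285 and 339 against at most 29.7 and differed by 2.54 ± 0.07 (limma adjusted p = 1.49e-19). Nkx2-2, a factor of ventral neural progenitors and oligodendrocytes, read 367 to 484 against at most 44.4 and differed by 2.68 ± 0.09. Both lay clear of every other sample. Through hypothalamus alone, 5 of the 18 had entered the test.

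The 3 factors called lower were high in other organs. Nr5a1, which specifies the ventromedial nucleus and also drives gonadal steroid synthesis, read 80.1, 136 and 189 in hypothalamus, 353 to 856 in testis and 1873 to 2594 in ovary. The difference from the 4 tissues was -1.24 ± 0.16 (limma adjusted p = 4.18e-07). Its hypothalamus samples lay below those of both gonads and overlapped liver and kidney. Nkx2-4 was lower through testis (286 to 330.4) and Tbx3 through ovary (286 to 525) and liver. Tbx3 was not called on the first arrays alone (-0.18, limma adjusted p = 0.252). Lhx1, higher in the combined contrast, was under kidney, at 102 to 143 against 169 to 296.

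Receptors for hormones and feeding signals were mixed. Of 29 on the array 20 were tested, of which 12 were higher, 3 lower and 3 above each tissue, with a median of 0.58; quantile normalization and median centring each gave 10 higher and 5 lower. The 3 above each tissue were Ntrk2, the receptor of the growth factor BDNF, Cckbr, a brain receptor of cholecystokinin, and Thra, a thyroid hormone receptor. Ntrk2 read 2786, 3023 and 3409 against 229.8 to 659.8 and differed by 2.88 ± 0.09 (limma adjusted p = 4.33e-18). Hypothalamus samples were clear of the others for these 3. Ghr, the growth hormone receptor, was lower (-1.48 ± 0.10), at 411 to 504 against 3654 to 4335 in liver, and so were Esr2, an estrogen receptor high in ovary (612 to 837), and Avpr1a, a vasopressin receptor high in liver (580.5 to 1058). Avpr1a was not called on the first arrays alone (-0.16, limma adjusted p = 0.204).

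Genes of transmitter release were uniformly high. All 28 synaptic vesicle and exocytosis genes tested were higher, and 27 of them were above each tissue, with a median of 3.33; 8 had entered through hypothalamus alone. Dnm1, which pinches off endocytic vesicles, read 8198, 8739 and 9060.2 against 30.2 to 401 and differed by 5.49 ± 0.10 (limma adjusted p = 1.17e-22). Syt1, the calcium sensor of release, read 2868, 3551 and 3866 against 48.9 to 281, and Syp, a vesicle membrane protein, read 2921, 3798 and 4324 against 58.8 to 163. None of these 3 overlapped another tissue.

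Genes that make or carry fast transmitters were high for both the inhibitory and the excitatory kind. Gad1, which makes GABA, read 1903, 2444 and 2796 against 38.5 to 134 and differed by 4.37 ± 0.13 (limma adjusted p = 6.93e-19). Slc32a1, which loads GABA into vesicles, read 900, 968 and 1087 against 11.8 to 64.4 (3.69 ± 0.11). Slc17a6, the glutamate loader of subcortical neurons, read 1735, 1964 and 2048 against 16.1 to 131 (4.32 ± 0.15). All 3 separated the tissues fully.

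Monoamine genes were uneven. Th, the rate-limiting enzyme of catecholamine synthesis, read 661, 768 and 994 against 71.4 to 236 (2.03 ± 0.14, limma adjusted p = 7.13e-12), and Slc6a3, the dopamine transporter, read 547, 799.7 and 1091 against 74.7 to 187 (2.34 ± 0.11). Both were above each tissue. Hdc, which makes histamine, is a marker of tuberomammillary neurons, yet it read 18.7, 27.8 and 60.5 in hypothalamus, 240.5 to 300.4 in testis and 1923 to 2634 in ovary. It was the 1 lower member (-1.97 ± 0.45, adjusted p = 0.000379) of 15 tested, of which 12 were higher and 9 above each tissue. Slc6a4, the serotonin transporter, did not pass the filter on low values.

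Receptors for these transmitters and voltage-gated channels followed the same pattern. Of 19 GABA and glutamate receptor genes tested, 12 of them through hypothalamus alone, 18 were higher and 14 were above each tissue, with a median of 2.18. Glrb, the glycine receptor beta subunit, read 900.3, 1044 and 1182 against at most 21.4 and differed by 4.29 ± 0.07 (limma adjusted p = 1.24e-23). Gabbr1, a subunit of the GABA-B receptor, ranged from 5470.5 to 6586 against 149.7 to 576. Both were apart from all other samples. Grin2b, an NMDA receptor subunit, was the member not called: testis read 642 to 1761 and hypothalamus 80.5 to 148. It was called lower after quantile normalization (-0.47, limma adjusted p = 0.0152) and median centring (-0.51, adjusted p = 0.0105).

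Among 41 channel genes tested, 21 through hypothalamus alone, 40 were higher and 29 were above each tissue, with a median of 2.24. Scn1a, a sodium channel of fast-firing neurons, read 1302, 1465 and 1567 against at most 18.2 and differed by 4.68 ± 0.06 (limma adjusted p = 1.46e-24). Scn2a, another brain sodium channel, read 1603 to 1981 against at most 49.3. No other tissue reached either range. Kcnip2, an accessory subunit of A-type potassium channels, was the member not called (0.06 ± 0.10, limma adjusted p = 0.615). Under quantile normalization and median centring, 39 of the 41 were higher and 1 was lower.

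All 37 genes tested for the neuronal cytoskeleton and axon growth were higher, and 34 were above each tissue, with a median of 3.73; 19 had entered through hypothalamus alone. Stmn4 led by p-value: it read 2364, 2492 and 2993 against at most 14.5 and differed by 5.50 ± 0.06 (limma adjusted p = 3.27e-26). Every sample of the other tissues was near the floor of the scale for it.

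Glial genes were also high, with exceptions that other organs share. Of 26 myelin and oligodendrocyte genes tested, 5 of them through hypothalamus alone, 25 were higher and 14 were above each tissue, with a median of 2.62. Mog, a surface protein of myelin, read 689, 823 and 889 against at most 11.8 (4.03 ± 0.06, limma adjusted p = 1.24e-23). Its ranges were apart by a wide margin. Ugt8a, which makes the myelin lipid galactosylceramide, read 1860.1 to 2514 in hypothalamus and 226 to 2235 in kidney, so single samples of those 2 tissues overlapped. Ugt8a still counts among the 14, which are called on means: kidney averaged 1902 in males and 260.4 in females. Gjb1, a gap junction protein of oligodendrocytes and hepatocytes, was the lower member (-0.37 ± 0.10), with liver at 3944 to 6023 and hypothalamus at 212 to 286. With a smaller constant added before the log it was not called (-0.04, limma adjusted p = 0.769).

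Of 31 astrocyte genes tested, 7 of them through hypothalamus alone, 29 were higher and 17 were above each tissue, with a median of 3.02. Gfap, the astrocyte intermediate filament, read 3239, 3950 and 4541 against 62.2 to 209 and differed by 4.54 ± 0.08 (limma adjusted p = 2.69e-22). Mt3, the brain metallothionein, read 4117 to 5789.6 with ovary next at 411 to 558. Both were clear of every other sample, and so was Aqp4, the water channel of astrocyte endfeet, at 1366 to 1663 against 329 to 966 in kidney. Aldh1l1, a folate enzyme used as an astrocyte marker, was lower (-1.04 ± 0.15), at 1053 to 1266 against 9617 to 12788 in liver and 5781 to 7560.4 in kidney. Clu, a secreted chaperone, was not called (0.27 ± 0.16, adjusted p = 0.125), but was called higher after quantile normalization (0.64, adjusted p = 0.00046).

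Cells at the ventricle, vessels and immune cells gave lists with calls in both directions. For tanycytes and ependyma 5 of 9 tested genes were higher and 2 lower, with a median of 0.62; Rarres2 and Vim were the lower ones. For microglia 4 of 14 were higher and 4 lower, with a median of -0.03. P2ry12, a purinergic receptor of resting microglia, read 806, 869.7 and 894 against 52.1 to 281 (2.56 ± 0.08, limma adjusted p = 2.58e-18), and Cx3cr1, the fractalkine receptor, read 619, 780.1 and 886 against 49.3 to 126. These 2 lay above each tissue, while Csf1r, a receptor of all macrophages, read 3264 to 4084 in hypothalamus and 3818 to 8723 in liver. Aif1, Mpeg1, C1qb and Fcer1g, which macrophages elsewhere also make, were lower. The C1qb call (-0.52) was lost without female 3 (-0.45, limma adjusted p = 0.0642) or male 2 (-0.44, adjusted p = 0.0682). The Fcer1g call (-0.70) was lost without female 3, male 1, male 2 or the third testis sample (adjusted p = 0.0528 to 0.0726).

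For brain endothelium and pericytes 12 of 22 genes were higher and 8 lower, with a median of 0.43. Slco1c1, the thyroxine carrier of the blood-brain barrier, read 1422, 1488 and 1521 against at most 37.5 (4.62 ± 0.08, limma adjusted p = 1.02e-22). It was the 1 member above each tissue. Of genes that endothelium makes in every organ, Pecam1, Cdh5, Tie1 and Kdr were lower, Flt1 (1.31 ± 0.08) and the tight junction gene Cldn5 (0.59 ± 0.10) were higher, and Tek (-0.01 ± 0.09) was not called. Bsg changed its sign with the scaling: it was -0.24 as deposited and 0.10 after quantile normalization, where it was not called.

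Markers of neighbouring tissue were checked next. Of 8 choroid plexus genes tested, 3 were higher and 4 lower, with a median of -0.66, and their summed intensity was 10623 to 17610.1 in hypothalamus and 34139.5 to 42636 in kidney. Ttr, the thyroxine carrier of choroid plexus and liver, read 8283, 13324 and 15016 in hypothalamus, 17589.7 to 21949 in liver and 2850 to 6954 in kidney. Hypothalamus lay between those 2 organs. Aqp1, Folr1 and Cldn2, further genes of the plexus, were lower, and Otx2 did not pass the filter. The part of choroid plexus in the Ttr value was not tested.

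Of 9 pituitary genes tested, Chgb and Dlk1 were higher and Rbp4, Lhb and Gh lower. The list's median was 0.08 as deposited and -0.24 and -0.21 under the other 2 scalings. The Lhb call was lost on the first arrays alone (-0.08, limma adjusted p = 0.492) and with the 6 other groups weighted equally (-0.18, adjusted p = 0.0592). The Gh call was lost without female 1 (-0.40, limma adjusted p = 0.051). Of the pituitary's own hormones, Gh read 43.3 to 112 in hypothalamus and 62.6 to 266 elsewhere. Prl, Cga and Tshb did not pass the filter. Prl read 23.6 to 64.1 against 15.3 to 100.2. Cga, the shared alpha subunit of the glycoprotein hormones, read 40 to 198 against 17.5 to 99.7, and Tshb, the thyrotropin beta subunit, 69.4 to 131 against 15.9 to 97.3, so the top of both hypothalamus ranges lay above the other tissues. Summed over the 9 genes, intensity was 5013 to 6089 in hypothalamus and 16301 to 20730.5 in liver, where Rbp4 is high.

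Genes of other brain regions were present as well. Every tested gene of the lists for cortex and hippocampus (10), striatum (12) and thalamus (11) was higher than the 4 tissues, with 5, 6 and 8 above each tissue and medians of 1.69, 1.79 and 2.33. In the same order, 2, 4 and 5 of these genes had entered the test through hypothalamus alone and had to differ. These lists hold genes that hypothalamic neurons also use, such as Isl1, Tac1 and Cck, and no other brain region was measured here, so their part in the hypothalamus values was not tested. For hindbrain and cerebellum 6 of 9 were higher and 3 lower, namely Hoxa5, Hoxb3 and Hoxb2. Those Hox genes are silent in forebrain by textbook, and read 12.1 to 51.1, 10.6 to 45.9 and 169.9 to 278 in hypothalamus against 170 to 340.1, 125 to 253 and 823 to 1043 in kidney.

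**Figure D3:**
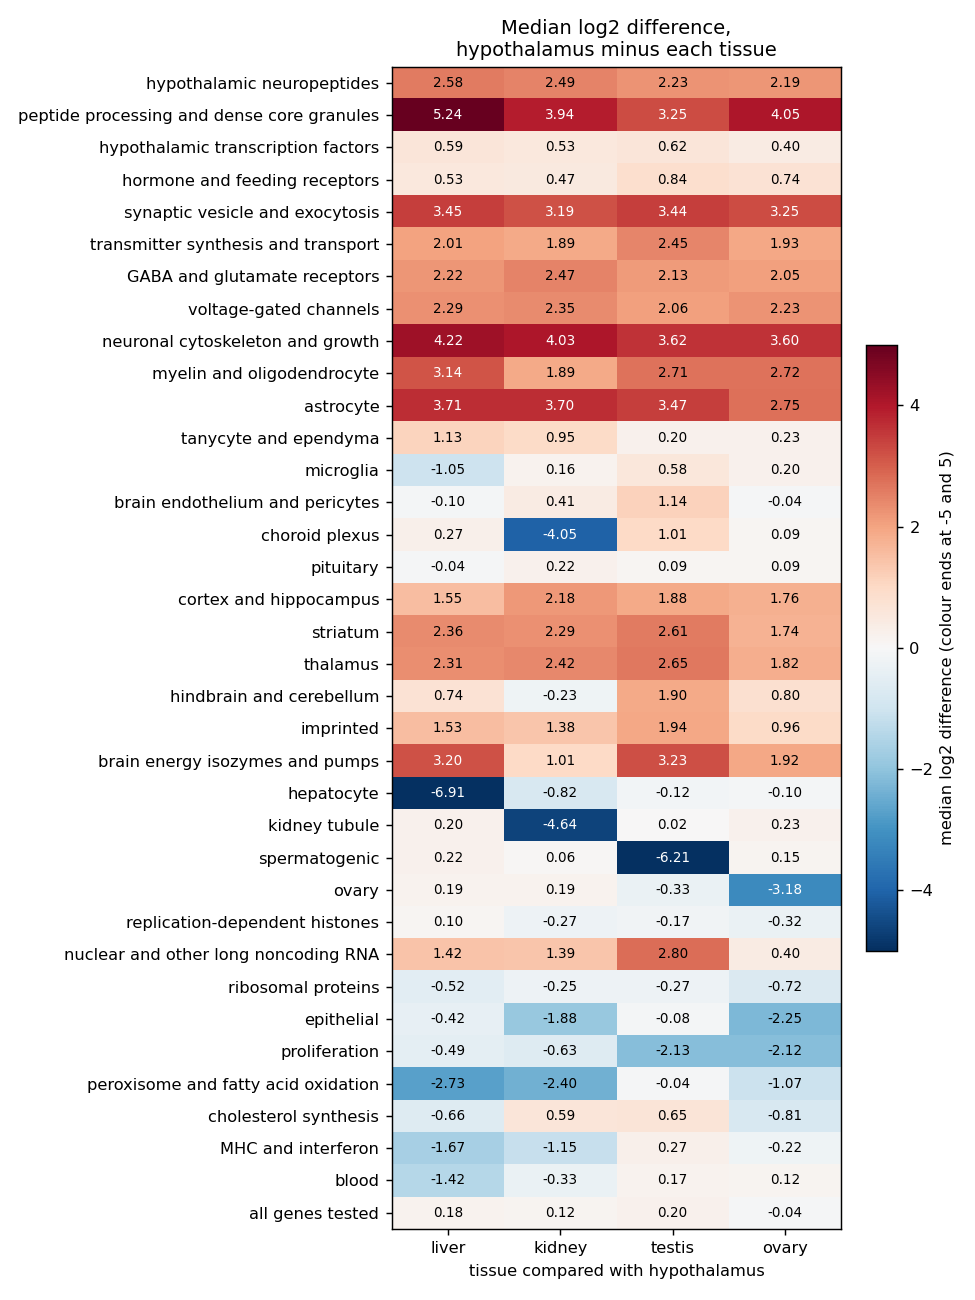
Median log2 difference, hypothalamus minus liver, kidney, testis or ovary, over the tested members of 35 gene lists and over all genes tested; red is higher and blue lower in hypothalamus. Synaptic, cytoskeletal and granule lists are above 3 against every tissue, while hepatocyte, kidney tubule, spermatogenic and ovary lists are at -6.91, -4.64, -6.21 and -3.18 against the tissue they mark and between -0.82 and 0.23 against the others.

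Imprinted genes, of which many act in hypothalamic control of growth and feeding, were mostly higher. Of 28 tested, 20 were higher, 5 lower, 12 above each tissue and 1 below each, with a median of 1.51. Ndn, a gene of the region lost in Prader-Willi syndrome, read 6498, 6733 and 7952 against 40.2 to 782 and differed by 4.79 ± 0.11 (limma adjusted p = 2.11e-20). Peg3, a zinc finger protein expressed from the paternal allele, read 5663, 5963 and 6465 against 105 to 529.7 (4.37 ± 0.16), and Magel2, from the same region as Ndn, read 422, 471 and 593 against 87.1 to 186 (1.66 ± 0.09). All 3 were apart from the other samples. The lower members were Slc22a18, Dcn, Mcts2, Phlda2 and Cdkn1c, and Cdkn1c, a brake on cell division, missed the 2-fold mark (-0.39 ± 0.17, adjusted p = 0.037). The Cdkn1c call did not hold with the 6 other groups weighted equally (-0.21, limma adjusted p = 0.241) or without any 1 of 5 hypothalamus samples (adjusted p = 0.0507 to 0.093, all but male 2).

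Energy metabolism differed in its isozymes. Of 23 brain isozymes and ion pumps tested, 22 were higher and 7 were above each tissue, with a median of 1.80. Eno2, neuron-specific enolase, read 4875, 5662 and 6213 against 5.15 to 146 (5.59 ± 0.13, limma adjusted p = 1.79e-20). Ldha, the muscle-type subunit of lactate dehydrogenase, went the other way: it read 1524, 1708 and 1975 against 3262 to 11866 (-2.05 ± 0.08, adjusted p = 4.36e-16). The Eno2 samples lay above and the Ldha samples below all others, while Ldhb, the heart-type subunit, was among the higher ones.

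Genes of fat breakdown were low. Of 28 peroxisomal and fatty acid oxidation genes, 26 were lower, 5 of them below each tissue, and Acaa1a and Acot2 were not called, with a median of -1.60. Hadh, a mitochondrial enzyme of beta-oxidation, read 1128, 1225 and 1254 against 3548 to 16701 (-2.82 ± 0.07, limma adjusted p = 1.47e-19). Ech1, an enzyme for unsaturated chains, read 481, 522 and 587 against 1895 to 8089.9 (-2.81 ± 0.08). Hypothalamus was below every sample of each tissue for both. The list's median was -2.73 against liver and -2.40 against kidney, -1.07 against ovary and -0.04 against testis.

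Cell division and epithelial genes were low. Of 27 proliferation genes tested 24 were lower and 2 higher, with a median of -1.46; it was -2.13 against testis, -2.12 against ovary, -0.49 against liver and -0.63 against kidney. Cks2, a partner of cell cycle kinases, read 132, 155 and 198 against 686 to 4736 (-2.94 ± 0.11, limma adjusted p = 5.97e-17), below every other sample. The higher pair was Stmn1, a microtubule regulator that neurons also express, at 6972 to 8141 against at most 5731, and Ccne1, at 149 to 221 against 25 to 171. Of 29 epithelial genes 26 were lower and 3 were not called, with a median of -1.48, and 0 were below each tissue. By tissue, the median was -1.88 against kidney and -2.25 against ovary, but -0.42 against liver and -0.08 against testis.

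Genes that mark the other tissues were low against the tissue they mark. Hepatocyte genes were lower in 18 of 19 cases, and Alb, serum albumin, read 98.9 to 145 against 19862 to 24201 in liver. Ttr was the exception in that contrast, although it lay below liver. Kidney tubule genes were lower in 14 of 19. The calcium-binding proteins Pvalb and Calb1, which neurons also make, were higher in the combined contrast, at 1466 to 1864 and 2463 to 3010.0. Kidney read 1249.9 to 3077 for Pvalb, which overlapped, and 3397 to 7557 for Calb1, which lay above hypothalamus. Spermatogenic genes were lower in 19 of 20, with Odf2, whose protein is also found at centrosomes, the exception. Ovary genes were lower in 15 of 17.

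Immune and blood genes were mostly lower, and sterol genes were called in both directions. For MHC and interferon genes 15 of 21 were lower and 1 higher, with a median of -0.80, and for blood genes 8 of 12 were lower and 1 higher. By tissue, the medians of the first list were -1.67 against liver, -1.15 against kidney, 0.27 against testis and -0.22 against ovary, and those of the blood list -1.42, -0.33, 0.17 and 0.12. The higher blood gene, the globin Hbb-b2 (0.32), was not called after quantile normalization (0.03) or median centring (0.02). The higher one of the first list, Ifit3, rested on male 3: it read 1445 there and 629.8 to 823 in the other 5 samples, and without that sample its difference went from 0.71 to 0.53 (limma adjusted p = 0.0709). Of 21 cholesterol synthesis genes 8 were lower, 3 higher and 10 not called, against 40% lower among all genes; the higher ones were Cyp46a1, which turns over cholesterol in neurons, Srebf2 and Apoe.

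Classes of RNA that poly(A) selection could favour or deplete were listed because of the labels. Of the replication-dependent histone genes, whose messages lack a poly(A) tail, 6 were tested: 2 were higher and 3 lower, with a median of -0.31; 1 was higher after quantile normalization and 0 after median centring, with 3 lower in both. H2ac19 was below each tissue, at 468 to 566 against 1122 to 8605. Of 8 nuclear and other long noncoding RNAs 6 were higher and 1 lower, with a median of 1.48; Snhg11, a neuronal host transcript of small nucleolar RNAs, read 3311 to 3779 against at most 128, while Malat1, a nuclear RNA, read 886 to 2687 and overlapped kidney (173 to 1205) and ovary (734 to 1204). Ribosomal protein genes were lower in 23 of 29 cases and higher in 1, with a median of -0.44; quantile normalization gave 10 lower and 5 higher, and median centring 28 lower. Rplp0 was below each tissue under the deposited scale, at 3044, 3208 and 3748 against 7231 to 11829 (-1.44 ± 0.08, limma adjusted p = 2.66e-13).

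The contrast was also fitted in each sex alone, which share no samples. Among males, with liver, kidney and testis, 39.5% of 17343 probe sets were higher and 30.4% lower. Among females, with liver, kidney and ovary, 38.9% of 16692 were higher and 33.3% lower. Over the 16239 probe sets tested in both, the differences correlated at r = 0.939, across probe sets that are not independent replicates. Those higher in both numbered 5546, which is 82.8% of the male calls and 86.7% of the female calls, and those lower in both numbered 3944 (84% and 73.7%); 172 were called in opposite directions. Under quantile normalization and median centring the share of calls that were higher went from 56.5% to 44.8% and 38.2% in males and from 53.9% to 45.6% and 40% in females.

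The 3 genes most different between the sexes' contrasts were high in testis. Ropn1l, a sperm tail protein, read 14.9 to 48.5 in hypothalamus and 11241 to 13621 in testis, with differences of -3.66 in males and -1.26 in females. Prm1, a protamine, read 208 to 308 in hypothalamus and 17425 to 21924 in testis (-1.47 and 0.84), and Pgam2, a phosphoglycerate mutase of muscle and testis, was at -3.28 in males and less far below in females. Next came Akr1c18, a steroid dehydrogenase that was highest in ovary (8746 to 13378), at -1.38 in males and -3.53 in females. Arc, an activity-regulated synaptic gene chosen after its values were seen, stood at 0.20 in males and 2.26 in females, since testis read 1363 to 2479, hypothalamus 139.6 to 334 and no other tissue above 34.7.

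**Figure D4:**
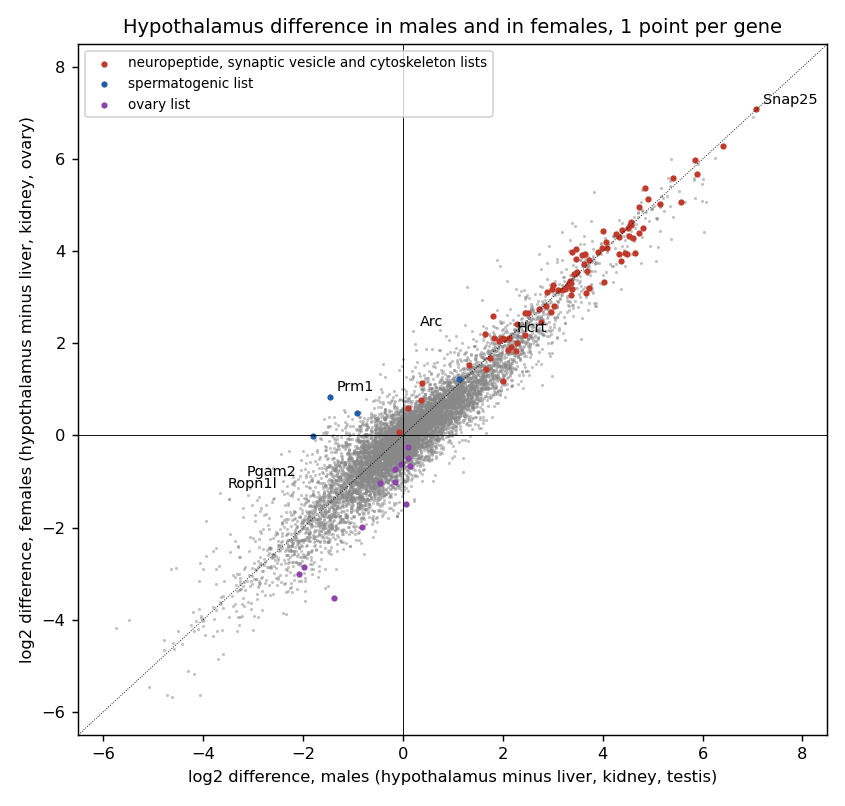
Log2 difference of hypothalamus from liver, kidney and testis in males (x axis) and from liver, kidney and ovary in females (y axis), 1 grey point per gene tested in both, with neuropeptide, synaptic and cytoskeletal genes in red, spermatogenic genes in blue and ovary genes in purple. The dotted line marks equal differences; red points follow it, and Prm1, Ropn1l, Pgam2 and Arc lie above it.

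The 6 hypothalamus samples were alike for most genes. Over 7643 genes with a mean intensity above 200, the median standard deviation of log2 values was 0.12 among the 6 samples, and 99% of genes were at or under 0.39. For the same genes, the median standard deviation between the 2 arrays of an RNA sample, before averaging, was 0.16. The spread among the averaged samples was thus no larger than that between single arrays, and may be technical. The genes with the largest spread were Xist, the RNA that silences an X chromosome in females, at 229 to 1942, followed by Acta1, the immunoglobulin chain Igkv8-30, Vapb, Igkv9-120, Lix1, Epas1 and Gbp6. Lix1 varied more between the 2 arrays of an RNA sample (0.99) than among samples (0.78). For the rest, arrays varied less than samples, with Acta1 next at 0.49 against 1.13. The Vapb call against the 4 tissues (-0.64, limma adjusted p = 0.0132) was lost without male 3 (-0.34, adjusted p = 0.104) or female 3 (-0.38, adjusted p = 0.0976). Gbp6, an interferon-induced GTPase, was not called with all samples (-0.85, adjusted p = 0.0513) and was called without female 1 or male 3, after quantile normalization (-1.03, adjusted p = 0.0146) and after median centring (-1.14, adjusted p = 0.0118). Xist (0.41, adjusted p = 0.0465) lost its call without any 1 of the 6 samples and under both other scalings (0.25 and 0.12). Lix1 kept its call in each case.

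**Figure D5:**
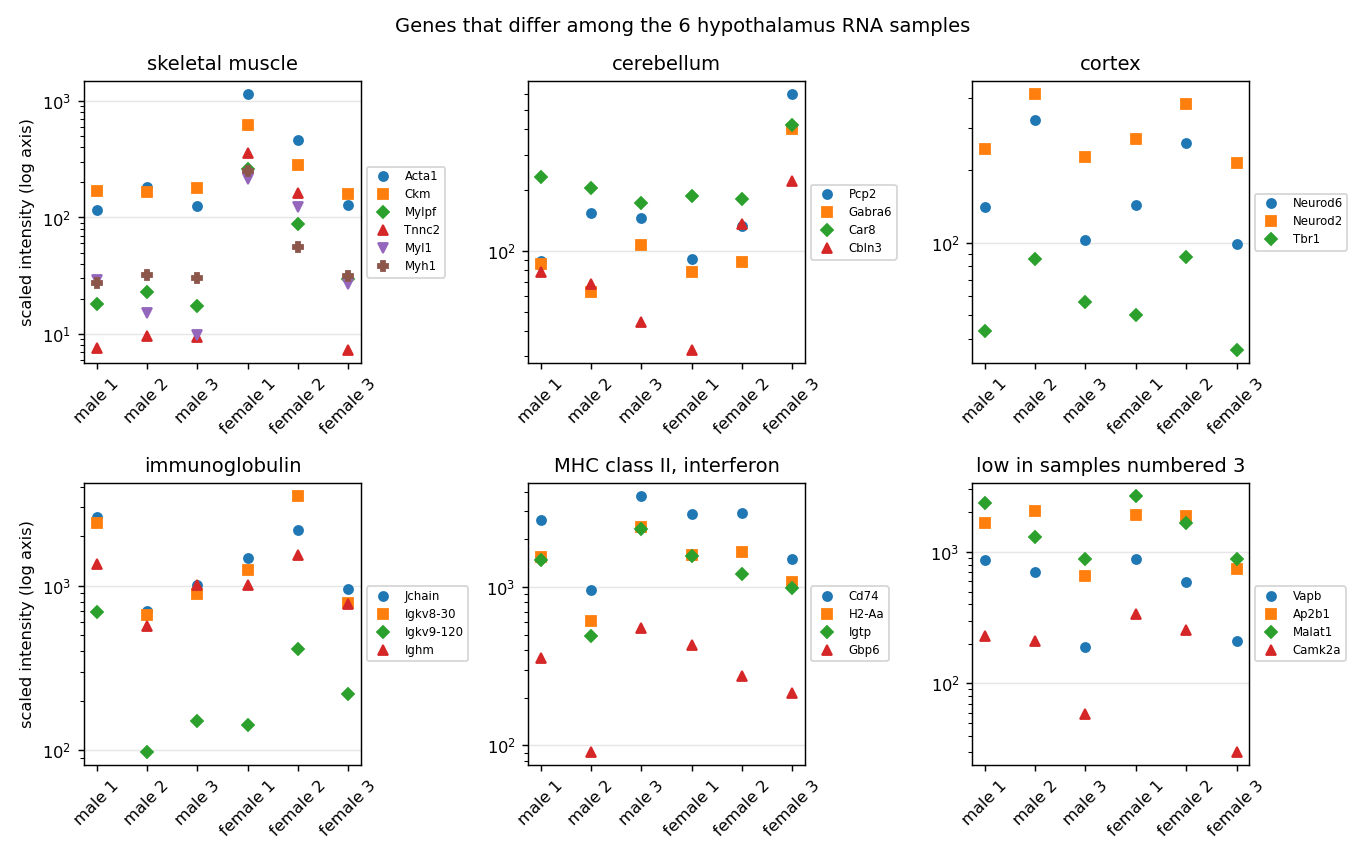
Scaled intensity (log axis) in each of the 6 hypothalamus RNA samples for genes chosen after their values were seen, 1 symbol per gene. Muscle genes are high in females 1 and 2, the cerebellar genes plotted in female 3, the cortical factors Neurod6, Neurod2 and Tbr1 in male 2 and female 2, immunoglobulin genes in male 1 and female 2, MHC and interferon genes are low in male 2, and Vapb, Ap2b1, Malat1 and Camk2a are low in the samples numbered 3.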

How the data were processed

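Affymetrix arrays measured 22626 probe sets (64 controls left out) in 24 RNA samples, 2 arrays each. The values are linear intensities as deposited; that the authors scaled each array to a common 2% trimmed mean was found from the values, and the software used is not given in the sources used here. Symbols came from the platform annotation, updated by Entrez identifier for 20351 probe sets: 20380 had 1 symbol, 691 several and 1555 none. The number of arrays limits the precision.

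From the deposited intensities, log2(intensity + 48.3), the 20th percentile, was averaged over the 2 arrays of an RNA sample. Probe sets above the 40th percentile in at least 3 RNA samples were fitted with limma 3.58.1 in R 4.3.3 on 8 groups of 3, each other tissue weighted equally, with Benjamini-Hochberg adjustment at 0.05; the fits were tested on simulated data. Sex-specific fits used 12 samples each. Tables and plots used Python 3.11.15, numpy 2.4.6, pandas 2.3.3 and matplotlib 3.10.9. A gene is its brightest tested probe set.

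A set of 277 genes was kept for naming, and not all of them are named. It held the 15 genes farthest above and the 10 farthest below each tissue without overlap. Up to 6 members of each list by p were added, with its defining markers and those called against the list. The 3 markers, the 8 genes with the largest spread and the 3 most different between sexes were included. Other genes named were chosen after their values were seen. Members and lists were chosen with earlier results of these data known. Alternatives were quantile normalization, median centring, pseudocounts 0.25 and 4 times as large, no filter, either array alone, an intensity trend, a replicate block, other weights or samples in the fit, and leaving out each RNA sample. RNA sample numbers did not pair hypothalamus with other tissues.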

Additional observations from a re-analysis of the deposited data

Results flagged for a closer look

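The checks below cover 277 genes kept for naming. Not all of these are named in the text, and some genes named there are not among them. Of the 277, 15 (5.42%) had 1 hypothalamus sample far from the other 5, by Dixon's criterion. By chance about 1 such group in 20 arises, so the number is near what chance gives. Female 2 was high for the erythroid heme enzyme Alas2 (278 against 191 to 205) and low for Apoe (10732 against 11629 to 12096), the deiodinase Dio2 (280.5 against 368 to 479.9), the sterol enzyme Fdft1 (689 against 848 to 968) and the astrocyte receptor Ntsr2 (3979 against 4259.6 to 4384). Female 1 was high for Nkx2-4 (87.2 against 28 to 34.8) and for Tk1 (61.8 against 14.3 to 27.6). Female 3 was high for Tnnt1, a troponin also expressed in thalamus (497 against 323 to 371), and low for Nnat (6371 against 7178 to 7689.5). Male 2 was high for Esr2 (74.5 against 38.8 to 48.4), Mcts2 (301 against 220.1 to 239) and the sodium channel Scn8a (1418 against 1170.3 to 1195). Male 3 was high for Ifit3 (1445 against 629.8 to 823) and Rplp0 (3748 against 3044 to 3251), and male 1 was low for Hadh (1128 against 1208 to 1254).

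The difference of hypothalamus from liver and kidney itself differed between the sexes for 12 of 18092 probe sets (0.0663%) by a limma interaction term at adjusted p under 0.05. Among the 277 genes kept for naming it did so for Ugt8a and Bhmt. For Ugt8a the male difference minus the female one was -1.32 ± 0.18 (adjusted p = 0.00153): hypothalamus averaged 2097 in males and 2123 in females, and kidney 1902 and 260.4. For Bhmt it was 1.63 ± 0.31 (adjusted p = 0.0472): hypothalamus averaged 40.7 and 36.4, and kidney 181 and 1790.1.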

How the results depend on the processing

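Counts of higher and lower probe sets stayed within 1.5 times of the reported ones under 10 alternatives, with 4 exceptions. Against liver, 7846 were lower after median centring (5127 reported). Below each tissue, 344 were found after quantile normalization, 437 after median centring and 114 with the larger pseudocount (222 reported). Leaving out each RNA sample in turn gave 7230 to 7590 higher and 6304 to 6611 lower than the 4 tissues, 8378 to 8801 and 4954 to 5234 for liver, 7553 to 8046 and 5087 to 5394 for kidney, 7959 to 8509 and 4846 to 5048 for testis, 4880 to 5588 and 5278 to 5970 for ovary, 1660 to 1690 above and 216 to 230 below each tissue, 6291 to 7111 and 4662 to 5434 in males, 5871 to 6623 and 5105 to 5625 in females, and a median spread of 0.11 to 0.12. Of 9415 alternative values of the 277 genes kept for naming, 9311 were counted as unchanged, 78 lost the call and 24 gained one. For a gene not called in the main fit, a change of sign was counted as unchanged, whether or not it was then called. Among called genes, 2 values changed sign: Bsg after quantile normalization (0.10, limma adjusted p = 0.233) and Sostdc1 with the larger pseudocount (-0.08, adjusted p = 0.468). The cause was not tested. Samples of hypothalamus and another tissue with the same number deviated together beyond r = 0.1 in 4 of 36 pairs, with a median of 0.00371, so the number does not pair them. A replicate block gave 7602 higher and 6638 lower than the 4 tissues and changed no count by over 1.5 times. It called Gbp6 (adjusted p = 0.0275) and ended the Xist call (adjusted p = 0.0527). Between other tissues, 29 of 45 pairs of the same number exceeded 0.1, with a median of 0.13 against -0.0611 for unlike numbers. Male and female hypothalamus samples of the same number correlated at 0.0919 to 0.333, and those of unlike numbers at -0.32 to 0.0679. As these ranges did not overlap, the male and female fits may not be fully independent although they share no samples. Values near background limit dim genes.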

Other observations

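The 6 hypothalamus samples differed in small sets of genes chosen after their values were seen, so no test is given. Skeletal muscle genes summed to 4462 and 2197 in females 1 and 2 and to 1073 to 1220.2 in the other 4 samples. Tnnc2, fast troponin C, read 359 and 161 there and 7.25 to 9.7 in the others, and Mylpf, a fast myosin light chain, 263 and 88.2 against 17.6 to 29.8. Mb, myoglobin, and Casq1, calsequestrin, were not higher in both of those samples, at 49.5 and 101 and at 242 and 323. Nor was the troponin Tnni2, at 40.1 and 27 there and 66.4 in male 1. Female 3 was high for the cerebellar granule cell genes Gabra6 (404 against 62.9 to 107) and Cbln3 (223 against 32.1 to 136) and for the Purkinje cell gene Car8 (421 against 172 to 233). Calb1 and Zic1 were not highest there, and the 10 cerebellar genes summed to 11034 in female 3, 10782 in male 1 and 8543 to 9927 in the others. Male 2 and female 2 were high for the cortical factors Neurod6 (324 and 259 against 98.7 to 143), Neurod2 (416 and 377 against 214 to 270.0) and Tbr1 (85.8 and 87.4 against 35.7 to 56.5). Lamp5, Camk2a and Egr1 did not set those 2 samples apart, and the 6 cortical genes summed to 3092 in female 1, 2795 in male 2 and 2827 in female 2.

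Immunoglobulin genes summed to 7053 in male 1 and 7682 in female 2 and to 2035 to 3859 in the other 4 samples. MHC class II and interferon-induced GTPase genes summed to 4653 in male 2, 16466 in male 3 and 7524 to 11897 in the remaining samples. Both samples numbered 3 were low for Vapb (188 and 211 against 591 to 877), the clathrin adaptor Ap2b1 (662 and 739 against 1652 to 2039), Malat1 (886 and 892 against 1292 to 2687) and the kinase Camk2a (58.5 and 30 against 212 to 340.2). What these samples share beyond the number is not given in the labels.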
